A study of Mus musculus with 72 samples.

Results

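The 6 genes described here encode the channels that release calcium from the endoplasmic and sarcoplasmic reticulum: the ryanodine receptors Ryr1, Ryr2 and Ryr3 and the inositol trisphosphate (IP3) receptors Itpr1, Itpr2 and Itpr3. They were chosen by symbol as complete gene families, and are 6 of the 53715 gene identifiers counted. The counts came from stranded total RNA sequencing of 72 libraries, 12 groups of 6, from 18 male mice of 18 weeks, kept on a C57BL/6J background. Gnb5, the G protein subunit that partners the R7 group of RGS proteins, carried a germline deletion of exon 3 on both alleles in the 6 Gnb5-/- mice (KO) and on 1 allele in the 6 heterozygotes (HET), and was intact in the 6 wild-type mice (WT). The deletion was present in every cell of the body, so no tissue of a KO mouse retained an intact gene. Atria (right and left, with the sinoatrial and atrioventricular node cells) and ventricles (right and left) came from mice of every genotype, whereas the brain regions (cerebellum, hippocampus and cerebral cortex) came only from WT and KO mice. The same 6 mice of a genotype gave its several tissues.

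Both families form very large tetrameric channels in the reticulum membrane. Ryanodine receptors open when calcium arrives through a nearby voltage-gated channel or, for Ryr1 in skeletal muscle, when that channel moves against them; Ryr2 is the release channel of the heartbeat, and Ryr3 is found at lower levels in many tissues and in the brain. IP3 receptors open when phospholipase C, activated by G protein-coupled receptors, makes IP3; Itpr1 is the neuronal form for which cerebellar Purkinje cells are known, Itpr2 is found in cardiac muscle and glia, and Itpr3 in secretory and sensory epithelia.

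The pore is the piece that the 6 share, and its coding sequence is shown so that their kinship and their separability by reads can be seen. Each stretch below has 78 bases of the longest coding transcript (GRCm38, GENCODE annotation), 5′ to 3′ on the coding strand, with the 18 bases that encode the selectivity filter in capitals.
Ryr1: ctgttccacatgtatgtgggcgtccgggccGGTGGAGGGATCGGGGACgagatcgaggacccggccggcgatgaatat
Ryr2: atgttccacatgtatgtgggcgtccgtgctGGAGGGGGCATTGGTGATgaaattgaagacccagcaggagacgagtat
Ryr3: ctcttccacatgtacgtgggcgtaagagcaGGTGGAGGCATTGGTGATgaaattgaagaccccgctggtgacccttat
Itpr1: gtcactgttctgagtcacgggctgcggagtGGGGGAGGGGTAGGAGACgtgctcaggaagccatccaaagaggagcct
Itpr2: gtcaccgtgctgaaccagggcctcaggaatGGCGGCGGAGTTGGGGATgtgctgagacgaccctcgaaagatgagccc
Itpr3: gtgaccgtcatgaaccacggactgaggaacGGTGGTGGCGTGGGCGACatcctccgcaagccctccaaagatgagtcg
In the ryanodine receptors the stretch lay in 1 exon: exon 105 of 109 of Ryr1 (chr7:29005568-29005645, minus strand), exon 101 of 105 of Ryr2 (chr13:11560597-11560674, minus strand) and exon 100 of 104 of Ryr3 (chr2:112636601-112636678, minus strand). In the IP3 receptors an intron split it, between exons 58 and 59 of 62 of Itpr1 (chr6:108518758-108519290, plus strand), exons 53 and 54 of 57 of Itpr2 (chr6:146157130-146158958, minus strand) and exons 54 and 55 of 58 of Itpr3 (chr17:27118601-27119220, plus strand). The filter began at codon 4918 of 5061 in Ryr1 and at codon 2545 of 2749 in Itpr1, near the end of each protein. Aligned position by position, the ryanodine receptor stretches shared 58 to 63 of 78 bases, the IP3 receptor stretches 54 or 55, and pairs across the families 29 to 40. No run as long as a full read was shared by the transcripts of any 2 members, and the longest shared run was 35 bases (Ryr1 and Ryr2), so no full-length read could match 2 members exactly.

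The genes and their identifiers were Ryr1 (ENSMUSG00000030592, chr7:29003344-29125179, minus strand), Ryr2 (ENSMUSG00000021313, chr13:11553102-12106945, minus strand), Ryr3 (ENSMUSG00000057378, chr2:112631355-113217096, minus strand), Itpr1 (ENSMUSG00000030102, chr6:108213096-108551109, plus strand), Itpr2 (ENSMUSG00000030287, chr6:146108299-146502223, minus strand) and Itpr3 (ENSMUSG00000042644, chr17:27057304-27122223, plus strand). Exons of Ryr1, Ryr3, Itpr1 and Itpr3 overlapped exons of genes on the opposite strand (Gm44408 and Gm26604, Aven, Gm44101 and Gm44040, and Itpr3os, respectively). Reads of such partners can be told apart only if strand was used in counting, which is not given in the sources used here.

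Libraries held 29204390 to 48807435 counts (median 38864900). Gnb5 fell with the number of deleted alleles and no WT and KO libraries overlapped: its mean levels in CPM (counts scaled to the library total and corrected by the trimmed mean of M-values) were 33.4, 17.4 and 2.06 in WT, HET and KO atria, and 104 in WT against 14.5 in KO cerebellum. Tissue markers stood with the labels in heart and cerebellum: the summed atrial muscle list ran from 22684 to 40751 CPM in atria and from 141 to 505 in ventricles, and the Purkinje list from 3792 to 4437 CPM in cerebellum and to at most 577 elsewhere. The hippocampal list summed to 381 to 598 CPM in hippocampus and 202 to 307 in cortex, and the cortical list to 375 to 511 CPM in cortex and 187 to 227 in hippocampus.

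In 4 libraries long transcripts were at lower levels, and so were most of the 6 members. The members have 9.02 to 28.79 kb of exons, so the median log2 level of other genes with at least 9 kb of exons was compared with that of genes of 1 to 3 kb, relative to the WT libraries of the tissue. This shift was -1.73 in the cerebellum of KO mouse 12, -1.64 and -0.92 in the cortex of KO mice 14 and 3, and -1.08 in the ventricles of HET mouse 4, while the other 68 libraries lay between -0.25 and 0.28. The median difference of the 6 members from the WT level in those 4 libraries was -1.40, -1.67, -1.13 and -0.66. In the ventricles of HET mouse 4, Ryr1 (1.54 CPM) was nonetheless the highest of its group and Ryr3 (4.97 CPM) lay within the range of the other 5 libraries (3.79 to 8.86). The plot of long genes against the members shows the 4 libraries apart from the rest. The members' differences between KO and WT in the cerebellum and cortex and between KO and HET in the ventricles are given below with and without these libraries for the members named there, and the values of other genes are given with all libraries only. The cerebellar library of KO mouse 12 also had the highest choroid plexus sum, 628 CPM against 9.55 to 15.6 in the other 11 cerebellar libraries.

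**Figure D1:**
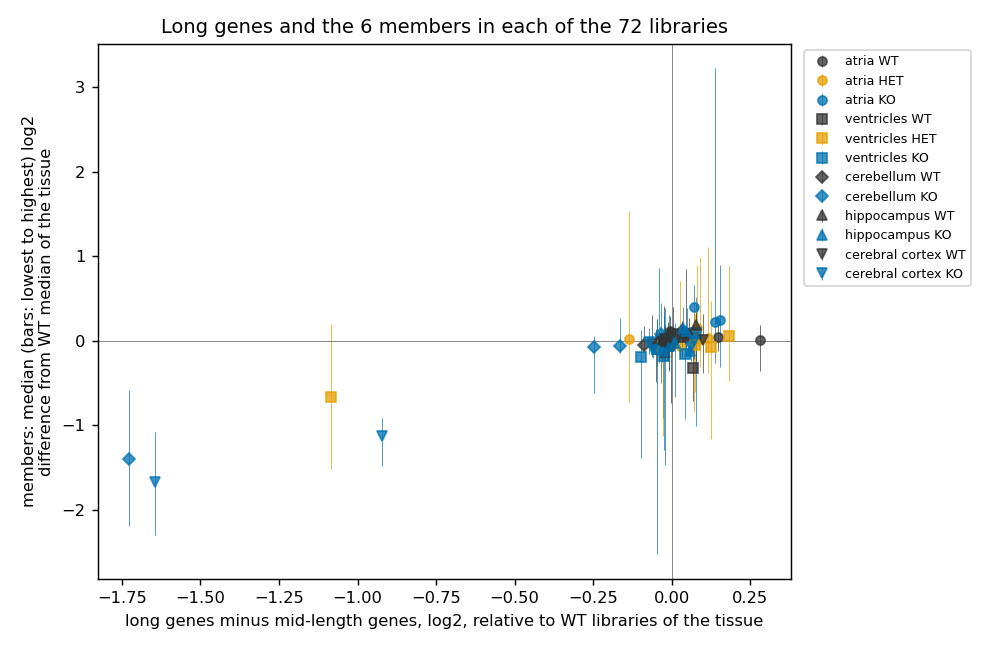
Each point is 1 of the 72 libraries. The horizontal axis gives the log2 level of long genes minus that of mid-length genes relative to WT libraries of the tissue, and the vertical axis the median log2 difference of the 6 members from the WT median, with bars from the lowest to the highest member. The 4 libraries at -0.92 or below on the horizontal axis have member medians of -0.66 or lower, and the other 68 lie between -0.25 and 0.28 on the horizontal axis.

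In WT mice the tissues differed in which receptor transcript was the most abundant. Per kb of exon, the scale on which levels of different genes are compared here, Ryr2 supplied 95.02% ± 0.904 (SD, n = 6) of the ryanodine receptor level in atria and 99.7% ± 0.0508 in ventricles, but 62.0%, 56.7% and 63.3% in cerebellum, hippocampus and cortex. Ryr1 held 29.0% ± 2.20 of the cerebellar level, 9.32% of the hippocampal and 12.2% of the cortical. Ryr3 held 33.99% ± 1.03 of the hippocampal level, 24.6% of the cortical, 8.98% of the cerebellar, 4.97% of the atrial and 0.218% of the ventricular. Among IP3 receptors, Itpr1 held 97.1% ± 0.373 of the cerebellar level, 91.1% of the hippocampal and 93.3% of the cortical, and 50.8% and 52.6% in atria and ventricles, where Itpr2 and Itpr3 shared the rest. The summed ryanodine receptor level was 96.6 ± 8.56 CPM per kb in atria and 119 ± 8.60 in ventricles, against 10.7 ± 0.639 and 8.58 ± 1.11 for the IP3 receptors. In the brain the order of the families was the other way round, with 209 ± 13.2 CPM per kb of IP3 receptors against 13.04 ± 0.820 of ryanodine receptors in cerebellum, 26.9 against 20.4 in hippocampus and 40.5 against 15.6 in cortex.

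**Figure D2:**
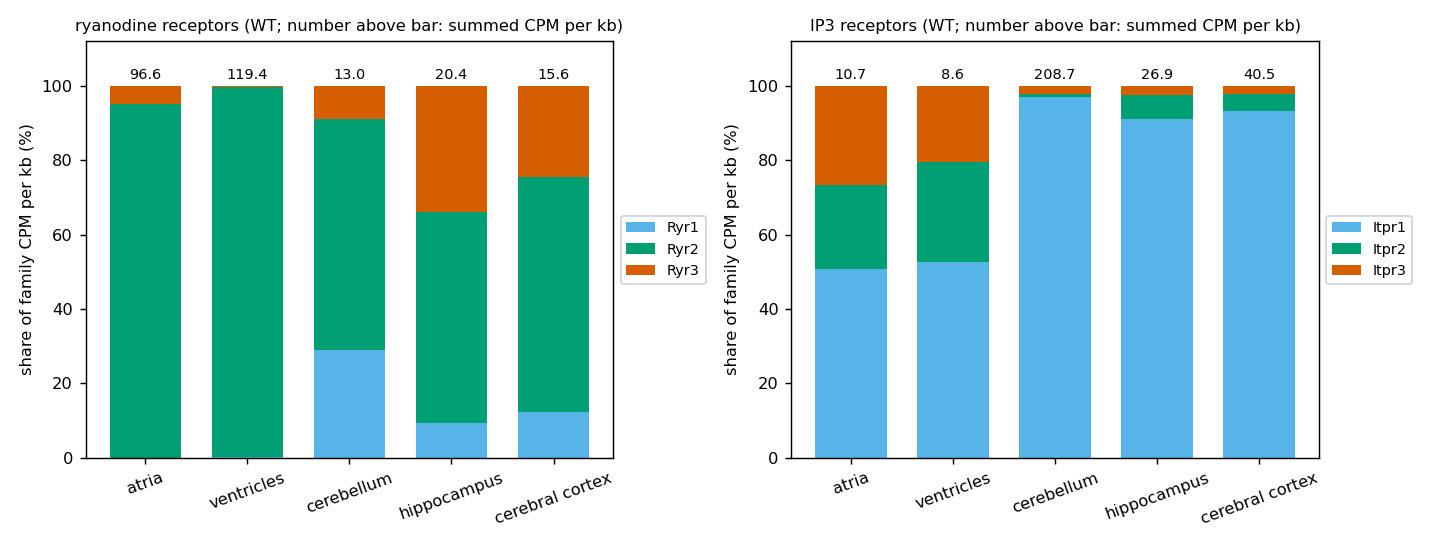
Stacked bars give each gene's share (%) of its family's CPM per kb of exon in the 5 WT tissues, as means over 6 mice, with the summed level above each bar. Ryr2 fills 99.7% of the ventricular and 56.7% of the hippocampal bar, and Itpr1 97.1% of the cerebellar and 50.8% of the atrial bar.

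Most members differed between most pairs of WT tissues, as most genes did. By edgeR's quasi-likelihood test on 19477 genes, with Benjamini-Hochberg adjustment and a call at an adjusted p below 0.05, 5 of 6 members were called between ventricles and atria, where 51.6% of all genes were called. All 6 were called in cerebellum against atria (86.3% of all genes), hippocampus against atria (86.4%), cortex against atria (87.0%), cerebellum against ventricles (86.6%), hippocampus against ventricles (86.9%) and cortex against ventricles (87.4%). All 6 were also called in hippocampus against cerebellum (68.3%) and cortex against cerebellum (69.1%), and 4 in cortex against hippocampus (33.5%). All 6 passed the low-count filter in every comparison of the study. Ryr1 held few counts in WT atria and passed the filter of the WT fit through the other tissues. Its calls against atria are included in these numbers but are not read as tests. DESeq2 gave the same numbers, except 5 in cortex against atria. Whether a tissue held more cells of a type or more RNA per cell cannot be told apart in bulk libraries.

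Ryr1, the skeletal muscle receptor, was a brain transcript in these mice and was close to absent from the heart. The 6 WT atrial libraries held only 3 to 8 counts each, with a lowest, median and highest level of 0.106, 0.210 and 0.260 CPM. WT ventricles had 0.686, 1.33 and 1.495 CPM, hippocampus 37.3, 40.1 and 50.6, cortex 36.4, 41.5 and 46.1, and cerebellum 73.1, 83.2 and 91.2. Thus all WT ventricular libraries were above all atrial ones, and all cerebellar libraries above those of the other tissues. The level was 5.85-fold higher in ventricles than in atria (log2 difference 2.55, SE 0.22) and 74.0-fold higher in cerebellum than in ventricles. No WT atrial library exceeded 8 counts, and Ryr1 passed the filter through the other tissues. Its differences from atria are therefore given as a description with no test. Hippocampus and cortex, whose ranges overlapped, differed by -0.01 on the log2 scale (95% interval -0.18 to 0.15).

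Ryr2, the cardiac receptor, was the opposite case, with its highest CPM in ventricles. Its WT range was 3104 to 3789 CPM in ventricles (median 3472), 2338 to 2936 in atria (median 2647), 284 to 379 in hippocampus (median 332), 252 to 297 in cortex (median 288) and 212 to 248 in cerebellum (median 231). No ventricular library overlapped an atrial one, although the difference was small (1.25-fold, log2 0.33, SE 0.08, edgeR adjusted p = 0.00101). The differences among brain regions were of similar size, 1.38-fold between hippocampus and cerebellum (adjusted p = 7.86e-06) and 0.843-fold between cortex and hippocampus (adjusted p = 0.0176, both by edgeR), and the last was lost without WT mouse 8 (adjusted p = 0.0737) or WT mouse 15 (adjusted p = 0.0569). The difference of 1.16-fold between cortex and cerebellum (edgeR adjusted p = 0.0185) was also lost without mouse 15 (adjusted p = 0.0814) or mouse 7 (adjusted p = 0.0516).

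Ryr3 separated atria from ventricles more than any other member. WT atria had 78.8, 89.3 and 107 CPM (lowest, median and highest) and WT ventricles 3.69, 4.73 and 6.29, a log2 difference of -4.26 (SE 0.16, edgeR adjusted p = 3.05e-20). Hippocampus had 116, 131 and 148 CPM, cortex 60.1, 71.4 and 89.2, and cerebellum 17.1, 20.02 and 36.1. The atrial level thus lay between those of hippocampus and cortex. Hippocampus was 1.46-fold above atria (adjusted p = 0.000272), whereas cortex against atria (0.800-fold, adjusted p = 0.0216, both by edgeR) was not called by DESeq2 (adjusted p = 0.111) or without WT mouse 17 (edgeR adjusted p = 0.217), so these neighbours cannot be ordered firmly. A single cerebellar library, that of WT mouse 16, gave the value of 36.1 CPM.

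Itpr1 was by far the most abundant IP3 receptor of the cerebellum. Its WT range there was 3405 to 4086 CPM (median 3639), against 635 to 746 in cortex (median 694), 400 to 507 in hippocampus (median 435), 92.1 to 107 in atria (median 99.9) and 63.1 to 91.0 in ventricles (median 88.7). None of the 5 ranges overlapped. The cerebellar level was 38.8-fold that of atria (log2 5.28, SE 0.10, edgeR adjusted p = 2.05e-29), and the cortical level 1.53-fold that of hippocampus (adjusted p = 6.58e-07). The smallest step was ventricles against atria, 0.802-fold (adjusted p = 0.00205, edgeR).

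Itpr2 varied least between tissues. Its medians in WT mice were 35.0 CPM in atria, 33.8 in ventricles, 27.2 in cortex, 26.0 in hippocampus and 19.4 in cerebellum. Atria and ventricles overlapped and differed by -0.14 on the log2 scale (95% interval -0.29 to 0.01, edgeR adjusted p = 0.116), and cortex and hippocampus by 0.04 (-0.11 to 0.18, adjusted p = 0.760). Cerebellum was lower than every other tissue, 0.581-fold against atria (adjusted p = 2.93e-11) and 0.641-fold against ventricles.

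Itpr3, the receptor of secretory epithelia, had an order unlike that of the other members. It was highest in cerebellum (34.8 to 47.9 CPM, median 40.9), followed by atria (20.7 to 30.2, median 26.5) and ventricles (9.44 to 20.7, median 15.5), and lowest in cortex (5.91 to 9.55, median 7.72) and hippocampus (4.63 to 6.66, median 5.51). Hippocampus was at 0.129-fold of cerebellum (log2 -2.96, SE 0.15, edgeR adjusted p = 7.58e-18). Cortex and hippocampus overlapped, and their difference of 1.37-fold (edgeR adjusted p = 0.0121) was lost without WT mouse 8 (adjusted p = 0.0572).

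**Figure D3:**
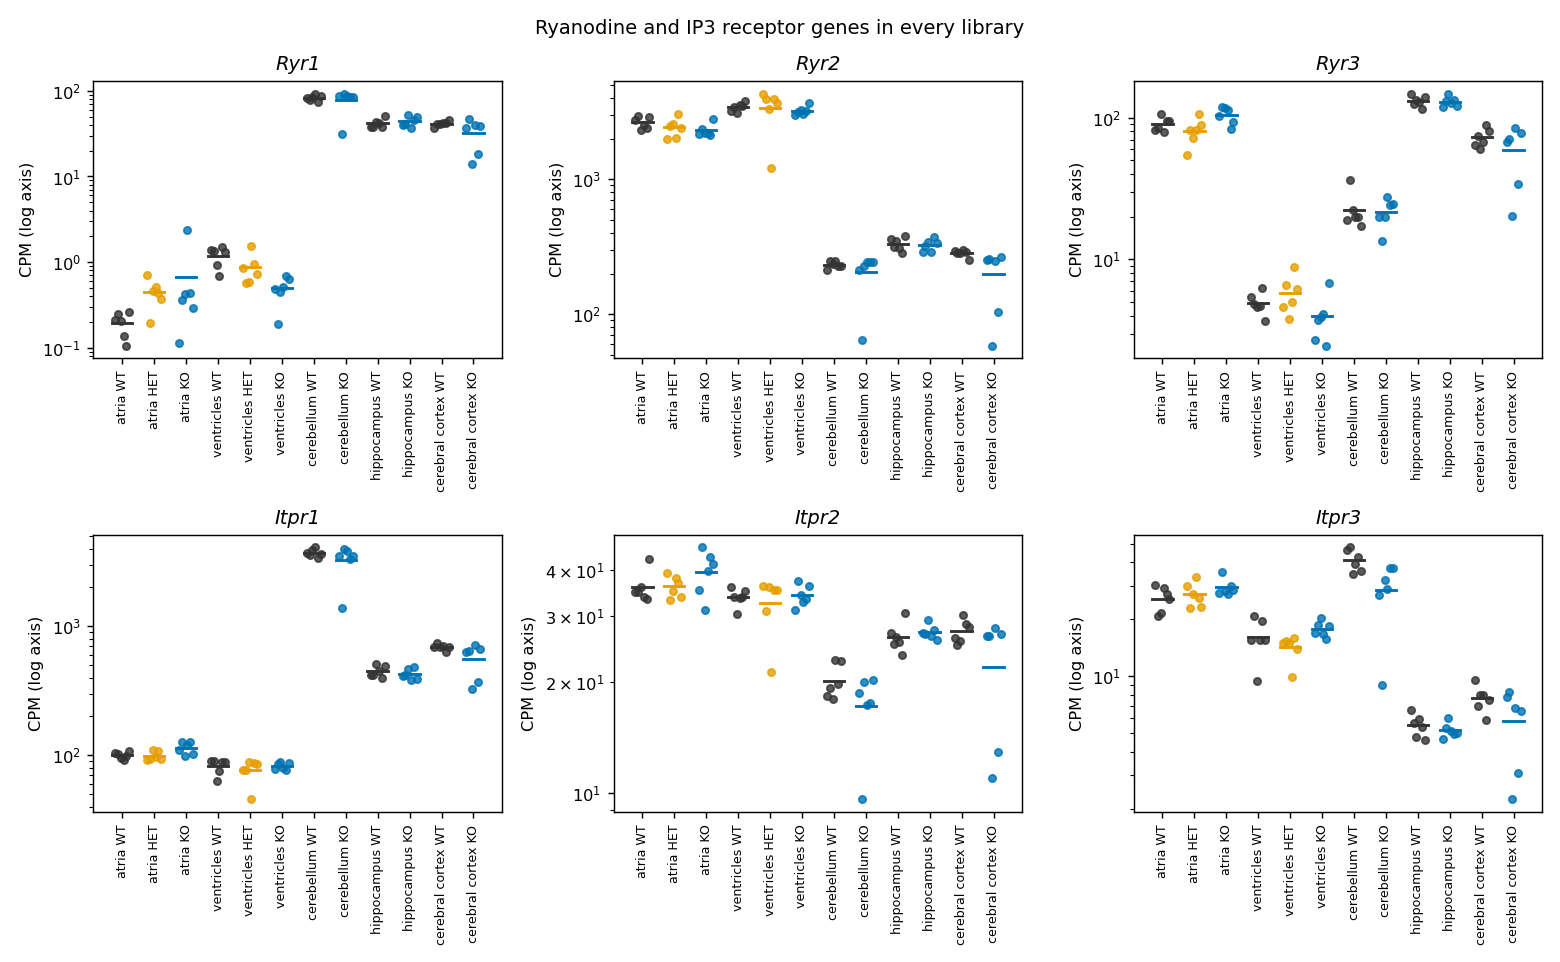
Each panel gives 1 gene in CPM on a log axis, with 1 point per library and a bar at the group mean, for the 12 groups of 6 libraries. Ryr1 rises from 0.194 CPM in WT atria to 82.5 in WT cerebellum, and Ryr2 falls from 3429 in ventricles to 233 in cerebellum. Low points of KO mouse 12 in cerebellum and KO mice 14 and 3 in cortex recur across panels. Those of HET mouse 4 in ventricles recur except for Ryr1 and Ryr3.

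Within a tissue the order of the 6 genes per kb of exon was Ryr2, Itpr1, Ryr3, Itpr3, Itpr2 and Ryr1 in atria, and Ryr2, Itpr1, Itpr2, Itpr3, Ryr3 and Ryr1 in ventricles. In cerebellum it was Itpr1, Ryr2, Itpr3, Ryr1, Itpr2 and Ryr3, and in hippocampus and cortex Itpr1, Ryr2, Ryr3, Ryr1, Itpr2 and Itpr3. The leading pair was the same per kb of coding sequence, but Itpr3 and Itpr2 in atria, Itpr3 and Ryr1 in cerebellum, and Ryr1 and Itpr2 in hippocampus and cortex changed places.

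Over the 30 WT libraries, the log2 levels of Ryr1 and Ryr2 ran against each other (Pearson's r = -0.949), as did those of Itpr1 and Itpr2 (-0.907), and Ryr1 went with Itpr1 (0.877). These values describe 5 tissues of the same 6 mice and rest on the differences between tissues. Of 19477 genes, the most like Ryr1 were Kcnk1, a potassium channel (r = 0.993), Rgs7bp, which anchors R7 RGS proteins with Gnb5 to the membrane (0.992), and Sybu (0.991). The most like Ryr2 were Map3k20 (0.997), Ccng1 and Idh3a, a subunit of mitochondrial isocitrate dehydrogenase. Those most like Itpr1 were the unclassified gene Gm43398 (0.996), Grid2ip, a Purkinje cell synapse protein, and Zic1, a transcription factor of cerebellar granule cells. Itpr3 was most like Kdm3b (0.977), Plcb3, a phospholipase C, and Col18a1. Ryr3 (Sort1, 0.981, Maged1 and Rab3b) and Itpr2 (Cd1d1, 0.948, Abi3 and Cdh13) had 34 and 172 genes with r above 0.9, Itpr3 86, Itpr1 1056, Ryr1 2371 and Ryr2 3252.

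Genes that work with the channels were taken from 4 lists of 72 genes: partners of the ryanodine receptors, partners of the IP3 receptors, enzymes and G proteins that make or remove IP3, and pumps and channels that refill the store. Between WT ventricles and atria 40 of the 70 tested were called by edgeR, 23 higher and 17 lower in ventricles (57.1%, beside 51.6% of all genes), with a median log2 difference of 0.05 beside -0.07 for all genes. Cacna1s, the voltage sensor that acts on Ryr1 in skeletal muscle, was 5.57-fold higher in ventricles (22.1 ± 9.58 against 3.89 ± 1.84 CPM), Homer2, a scaffold of IP3 receptors, 3.76-fold, and Pln, the inhibitor of the calcium pump Atp2a2, 3.53-fold. For Pln the log2 SE was 0.63 and the edgeR adjusted p 0.0152, and DESeq2 gave no adjusted p. Sln, another pump inhibitor, was 131-fold lower in ventricles (10.3 ± 5.61 against 1291 ± 205 CPM), Atp2a1, the fast skeletal muscle pump, 21.04-fold lower, and Plch1, a phospholipase C, was near 0 in both (0.0155 and 0.257 CPM). Atp2a1 was thus lower in the chamber where Ryr1 was higher, although Ryr1 was close to absent from both chambers.

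Between heart and brain 64 to 68 of the 70 list genes were called in each of the 6 pairs (91.4% to 97.1%, beside 86.3% to 87.4% of all genes). Within the brain 62 of 70 were called between hippocampus and cerebellum (88.6%, beside 68.3% of all genes), 58 between cortex and cerebellum (82.9%, beside 69.1%) and 43 between cortex and hippocampus (61.4%, beside 33.5%). The partners of the IP3 receptors went both ways: 7 were higher and 7 lower in hippocampus than in cerebellum, and 8 higher and 7 lower in cortex than in cerebellum. Car8, the IP3 receptor inhibitor of Purkinje cells, had 1139 ± 54.8 CPM in WT cerebellum, 3.39 ± 0.722 in hippocampus and 8.09 ± 0.767 in cortex, and the phospholipase Plcb4 had 313 ± 10.6, 16.5 ± 0.427 and 58.3 ± 4.15. The pump Atp2a3 (275 CPM in cerebellum, 9.17 in hippocampus, 11.95 in cortex) and the scaffold Homer3 (183, 34.4 and 4.91) were also highest in cerebellum among the brain regions. Homer2 was the lowest of the 3 regions in cerebellum, at 20.8 ± 2.37 CPM against 98.1 ± 6.92 in hippocampus and 84.7 ± 6.49 in cortex, and so were Homer1 (36.6, 111 and 193 CPM), another scaffold, and Bok (6.91, 36.7 and 26.0). These 3 were chosen after their values were seen. Camk2a, a kinase that phosphorylates ryanodine receptors, was also lowest in cerebellum, at 80.5 ± 2.52 CPM against 3448 ± 176 in hippocampus and 3036 ± 187 in cortex. Camk2d was 3.32-fold higher in cortex than in hippocampus. Lrmp was 6.08-fold higher in cortex than in cerebellum. Jsrp1 (0.0473, 0.642 and 2.06 CPM in cerebellum, hippocampus and cortex) and Gna14 (0.0827, 1.11 and 0.256) were called between these tissues at levels of about 2 CPM or less. Pln was called between hippocampus and cortex, but 1 hippocampal library held 35.7 CPM against a median of 1.76.

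No member was called for genotype in any of the 9 comparisons, by edgeR's quasi-likelihood test with Benjamini-Hochberg adjustment over all genes. The share of all genes called was 0.253% in KO against WT atria, 0.0124% in HET against WT atria, 0.0494% in KO against HET atria, 0.188% in KO against WT ventricles, 0.0202% in HET against WT ventricles and 0.0874% in KO against HET ventricles. In the brain it was 0.0817% in cerebellum, 0.165% in hippocampus and 0.0557% in cortex. An unadjusted p under 0.05 was held by 2 members in KO against WT atria (Ryr1, whose filter is described below, and Itpr1, beside 8.15% of all genes), 0 in HET against WT atria (7.22%), 2 in KO against HET atria (4.86%), 1 in KO against WT ventricles (4.78%), 0 in HET against WT ventricles (4.84%) and 3 in KO against HET ventricles (8.79%). It was held by 0 in cerebellum (5.85%), 0 in hippocampus (7.70%) and 0 in cortex (7.39%). DESeq2 called 1 member in KO against WT ventricles, Ryr1, and 0 in the other comparisons. With so few genes called at all, 0 of 6 is close to the background.

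Ryr1 in the ventricles was the member nearest to a call. The lowest, median and highest levels were 0.686, 1.33 and 1.495 CPM in WT, 0.569, 0.791 and 1.54 in HET and 0.191, 0.498 and 0.697 in KO mice. WT and KO libraries overlapped only where the highest KO library passed the lowest WT one, and HET libraries lay across both. The fitted difference of KO from WT was -1.27 on the log2 scale (SE 0.29, edgeR adjusted p = 0.0967), and the exact two-sided permutation test gave p = 0.00433. DESeq2 gave an adjusted p of 0.0207. Leaving out the library of HET mouse 4, which shares the estimate of spread, gave an edgeR adjusted p of 0.0482 with the same difference, and the 2 genotypes alone gave 0.129. The level rested on 4 to 35 counts per library. KO against HET differed by -0.81 (edgeR adjusted p = 0.460), and by -0.59 without HET mouse 4.

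In the atria Ryr1 differed in the opposite direction, on still fewer counts. Levels were 0.106, 0.210 and 0.260 CPM (lowest, median and highest) in WT, 0.193, 0.449 and 0.700 in HET and 0.114, 0.390 and 2.36 in KO mice. The gene passed the filter only through the HET and KO libraries, since no WT library exceeded 8 counts, so its atrial differences are given as a description with no test. The value of 2.36 CPM came from KO mouse 1 (104 counts), and the other 5 KO libraries reached at most 0.431 CPM. The fitted KO difference of 1.78 (SE 0.57) was 0.71 without KO mouse 1. HET was 2.26-fold above WT, with overlapping groups. KO against HET was 0.60 with KO mouse 1 and -0.47 without it.

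Fast skeletal muscle myosins were high in the same atrial library. Myh1, Myh2 and Myh4 together had 21.4 CPM in the atria of KO mouse 1, 1.24 in those of HET mouse 4 and at most 0.215 in the other atrial libraries. In the ventricles HET mouse 4, which had the highest Ryr1 of its group, also had the highest myosin sum, 0.571 CPM against at most 0.239 elsewhere, and Myh4 was at 0 in all WT and KO ventricular libraries. The summed list of 12 skeletal muscle genes, 5 or 6 of which exceeded 1 CPM in at least 3 atrial libraries of a genotype and 2 or 3 in ventricles, ranged from 56.3 to 90.9 CPM in WT, 49.4 to 82.8 in HET and 54.2 to 116 in KO atria, and from 46.8 to 65.5, 42.0 to 56.7 and 36.3 to 66.3 in the ventricles. The lowest HET sum in the ventricles, 42.0 CPM, was that of HET mouse 4. The part of skeletal muscle in the Ryr1 values was not tested.

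**Figure D4:**
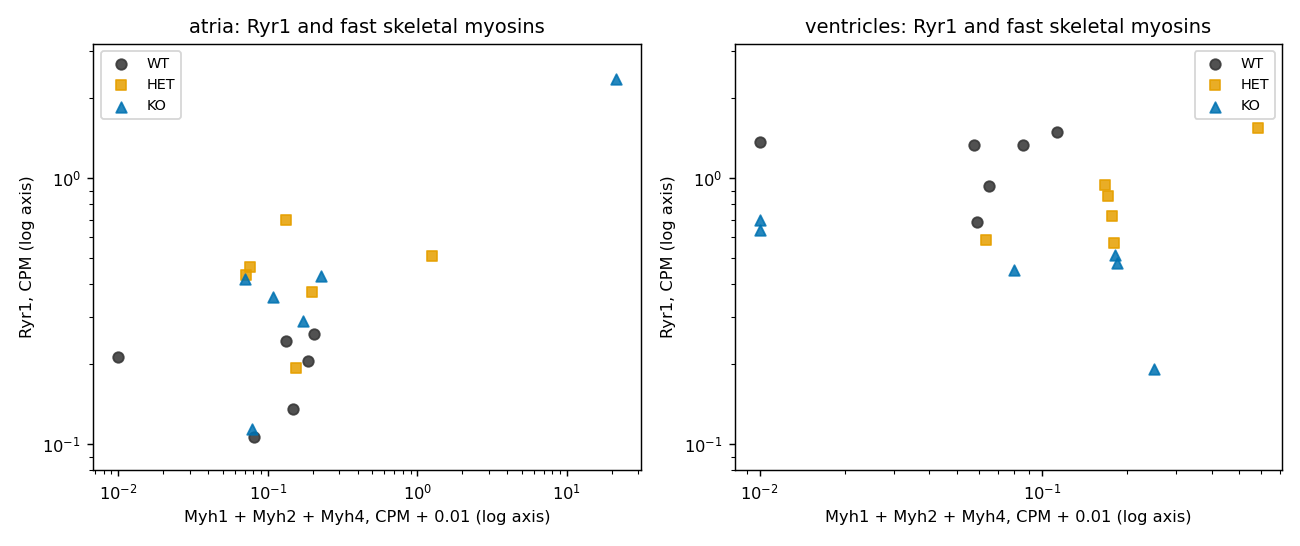
Ryr1 (CPM, log axis) is plotted against the sum of Myh1, Myh2 and Myh4 (CPM + 0.01, log axis) for each of the 18 atrial and 18 ventricular libraries, coloured by genotype. KO mouse 1 stands alone at 21.4 CPM of myosins and 2.36 CPM of Ryr1 in atria. In ventricles the KO points lie below most WT points, with myosin sums of 0 to 0.239 CPM in KO and 0 to 0.103 in WT.

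Ryr2, the main cardiac channel, differed little with genotype in the heart. In atria its lowest, median and highest levels were 2338, 2647 and 2936 CPM in WT, 1979, 2461 and 3038 in HET and 2141, 2198 and 2793 in KO mice. KO was at 0.874-fold of WT (log2 -0.19, 95% interval -0.39 to 0.00, edgeR adjusted p = 0.665, exact permutation p = 0.0498), with 5 of 6 KO libraries below the WT mean and 1, of mouse 5, at 2793. In ventricles the medians were 3472, 3802 and 3192 CPM in WT, HET and KO mice, and the KO difference was -0.09 (-0.47 to 0.28). KO against HET was also -0.09 (edgeR adjusted p = 0.919), and -0.26 without HET mouse 4 (edgeR adjusted p = 0.204), whose level of 1215 CPM was the lowest of all ventricular libraries.

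Ryr3 had medians of 89.3, 81.9 and 108 CPM in WT, HET and KO atria and 4.73, 5.58 and 3.83 in WT, HET and KO ventricles, with overlap throughout. KO against WT was 0.22 (95% interval -0.03 to 0.46) in atria and -0.31 (-0.76 to 0.14) in ventricles. KO against HET was 0.37 in atria (edgeR adjusted p = 0.796) and -0.56 in ventricles (adjusted p = 0.489), and the latter was -0.61 without HET mouse 4 (edgeR adjusted p = 0.329).

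The fitted KO differences of the 3 IP3 receptors in atria lay between 0.14 and 0.20 on the log2 scale, and none passed the test. Itpr1 had 92.1, 99.9 and 107 CPM in WT, 91.3, 95.7 and 111 in HET and 99.6, 115 and 128 in KO atria, a KO difference from WT of 0.20 (SE 0.08, edgeR adjusted p = 0.456, exact permutation p = 0.0325). Itpr2 differed by 0.14 (95% interval -0.04 to 0.31) and Itpr3 by 0.20 (-0.02 to 0.41). In ventricles Itpr1 differed by -0.01 (-0.27 to 0.25), Itpr2 by 0.01 (-0.21 to 0.22) and Itpr3 by 0.14 (-0.15 to 0.43). Itpr3 was higher in KO than in HET ventricles by 0.31 (edgeR adjusted p = 0.553, exact permutation p = 0.00433), and by 0.22 without HET mouse 4.

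Most of the KO differences in the cerebellum rested on the library of KO mouse 12. It was the lowest of the 12 libraries for every member, with Itpr1 at 1382 CPM against 3312 to 3959 in the other 5 KO libraries and Ryr1 at 31.3 against 83.6 to 92.6. With it, KO differences from WT ran from -0.05 (Ryr3) to -0.53 (Itpr3, SE 0.26, edgeR adjusted p = 0.583). Without it they ran from -0.34 (Itpr3) to 0.07 (Ryr1). Itpr3 had 34.8, 40.9 and 47.9 CPM in WT, and 26.7, 32.3 and 37.3 in the 5 other KO libraries, which overlapped the WT range. That difference of -0.34 (SE 0.10) had an edgeR adjusted p of 0.258. The exact permutation p of 0.0152 was for all 12 libraries, mouse 12 included, and not for that difference. Itpr1 without mouse 12 differed by -0.03 (SE 0.06).

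In the cortex all 6 members were lower in KO than in WT mice with every library, by -0.29 (Ryr3 and Itpr1) to -0.52 (Ryr2) on the log2 scale, with edgeR adjusted p of 0.474 to 0.557. Ryr2 had 252, 288 and 297 CPM in WT, and 58.4 and 103 in KO mice 14 and 3 against 248 to 265 in the other 4 KO libraries. Without mice 14 and 3 the differences were -0.15 for Ryr2 (SE 0.05, edgeR adjusted p = 0.955), -0.06 for Itpr1, -0.05 for Itpr3, -0.03 for Ryr1, -0.02 for Itpr2 and 0.05 for Ryr3. The cortical library of mouse 14 also had the highest Purkinje sum of the cortex (577 CPM) and the highest endothelial sum (165 CPM, against 84.0 to 116 in WT cortex), and their part in the values was not tested.

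In the hippocampus no library stood apart in long transcripts. KO differences were 0.09 for Ryr1 (95% interval -0.09 to 0.28), -0.04 for Ryr2 (-0.19 to 0.11), -0.03 for Ryr3 (-0.15 to 0.10), -0.08 for Itpr1 (-0.22 to 0.06), 0.04 for Itpr2 (-0.07 to 0.15) and -0.09 for Itpr3 (-0.28 to 0.09). Every WT range overlapped its KO range. Ryr3, which is highest in this region, had medians of 131 CPM in WT and 129 in KO mice.

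**Figure D5:**
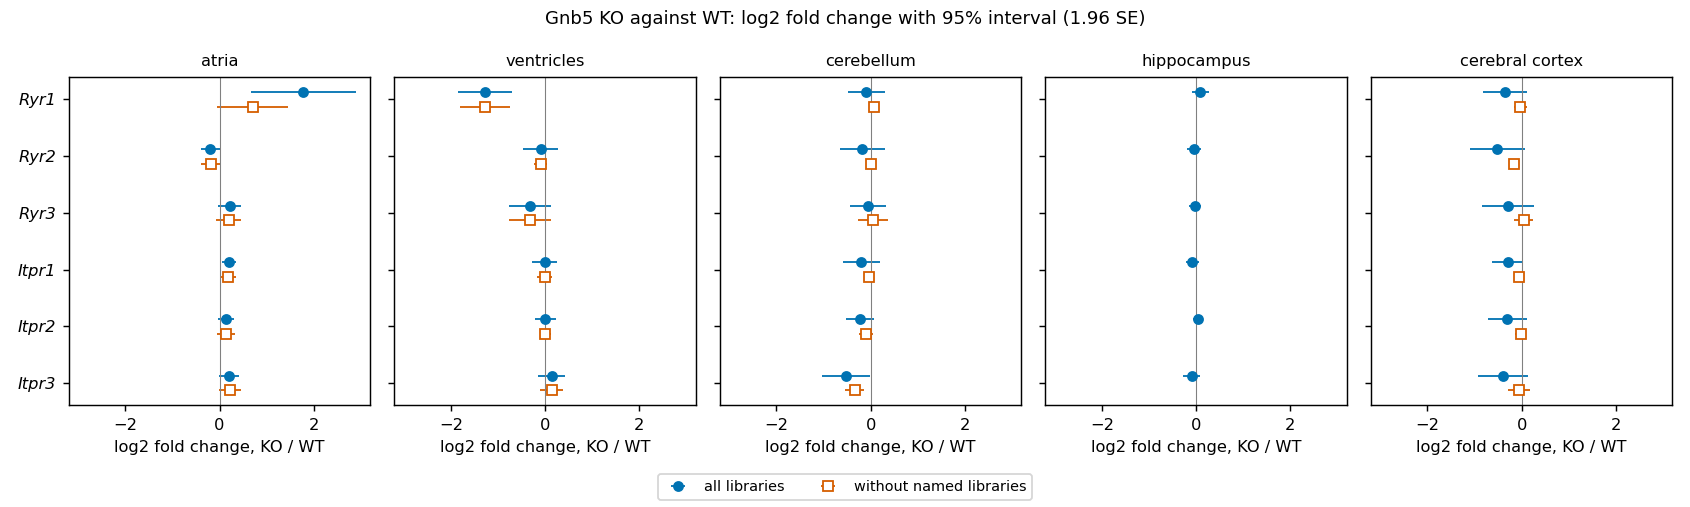
Log2 fold change of KO over WT with its 95% interval for the 6 members in each tissue, for all libraries (filled) and without the named libraries (open): KO mouse 1 in atria, HET mouse 4 in ventricles, KO mouse 12 in cerebellum and KO mice 14 and 3 in cortex. The open points of the cortex lie between -0.15 and 0.05, and Ryr1 of the ventricles is at -1.27 in both. HET mouse 4 belongs to neither group compared, so leaving it out was not a check of that value.

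The KO effect was then compared between tissues of the same mice, with each mouse as a block. No member was called: 0 of 6 for ventricles against atria (0.00622% of all genes called), 0 for hippocampus against cerebellum (0.0258%), 0 for cortex against cerebellum (0.0103%) and 0 for cortex against hippocampus (0% of all genes called), by edgeR and by DESeq2. In the heart 2 members, Ryr1 and Ryr3, had an unadjusted p under 0.05 (4.57% of all genes), and in the brain 0 did (3.72% to 4.42%). With all libraries the brain differences ran from -0.55 (Ryr2, cortex against hippocampus) to 0.47 (Itpr3, hippocampus against cerebellum), and without KO mice 14, 3 and 12 from -0.22 (Ryr3, hippocampus against cerebellum) to 0.30 (Itpr3, cortex against cerebellum). The largest difference was that of Ryr1 between ventricles and atria, -2.59 (SE 0.60), and it was -1.95 without KO mouse 1. Since the WT atrial libraries held few counts of Ryr1, its difference is a description with no test. The unadjusted p of Ryr1 in this comparison is therefore not read as a result. Ryr3 differed by -0.56 (SE 0.21, edgeR adjusted p = 0.973). With genes of few counts kept, edgeR called Ryr3 (adjusted p = 0.0403), where 135 of 30320 genes were called. Ryr1 was among the genes called in that setting, with the same limit of few atrial counts.

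None of the genes of the 4 lists was called for genotype by edgeR, among 62 to 68 tested per comparison, while 2 to 9 per comparison (3.03% to 13.6%, beside 4.78% to 8.79% of all genes) had an unadjusted p under 0.05. DESeq2 called 1, Atp2a1 in KO against HET ventricles (adjusted p = 0.0361), for which edgeR gave -1.21 on the log2 scale (adjusted p = 0.203). The gene with the smallest p in KO against WT was Hrc, a calcium-binding protein of the sarcoplasmic reticulum, in atria (-0.27, adjusted p = 0.283), Atp2a1 in ventricles (-0.88, adjusted p = 0.742), Plcb1 in cerebellum (-0.32, adjusted p = 0.583), Stim1, the sensor of store filling, in hippocampus (0.09, adjusted p = 0.345) and Plcb4 in cortex (-0.36, adjusted p = 0.474), all by edgeR. For HET against WT ventricles it was Stim1 (-0.34, adjusted p = 0.961), and for KO against HET atria Hrc (-0.20, adjusted p = 0.979), both by edgeR. For the differences between KO effects, none of 66 to 70 list genes was called by edgeR or DESeq2 and 1 to 4 had an unadjusted p under 0.05 (1.43% to 6.06%, beside 3.72% to 4.57% of all genes). The smallest p values in the brain belonged to Plcb1 (hippocampus against cerebellum, 0.34), Plcd1 (cortex against cerebellum, 0.39) and Itpripl1 (cortex against hippocampus, 0.66).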

How the data were processed

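RNA of 72 tissue samples was sequenced by the authors as stranded total RNA libraries with single-end reads. Per the study's methods and the submitters' processing notes, reads were trimmed with cutadapt 1.8, aligned with STAR 2.5.3a to GRCm38 and counted per gene with HTSeq 0.9.1, with ribosomal reads removed before alignment. The deposited values are raw counts per Ensembl gene, and 53620 of 53715 identifiers were matched to symbols. Here, counts were tested with edgeR 4.0.16 in R 4.3.3 (TMM scaling, filterByExpr with a count minimum of 10, quasi-likelihood test, Benjamini-Hochberg adjustment over all genes tested, threshold 0.05). DESeq2 1.42.0, used by the authors in another version, was the alternative. Genotypes were compared within a tissue with all its genotypes in the fit, WT tissues in 1 fit of 30 libraries, and KO effects between tissues with the mouse as a block. Single members were also tested by exact two-sided permutation of log2 CPM (prior count 2), where 0.00216 is the smallest p that 6 against 6 can give. These permutation p values were not adjusted over members or comparisons. Intervals are the estimate ± 1.96 SE. Lengths are unions of exons, or coding sequence as an alternative. The rule for named genes was the 6 members, Gnb5, the 3 genes with the largest called fold in each direction for ventricles against atria and each pair of brain regions, and the list gene with the smallest p in each genotype comparison. For 2 comparisons that gene is not reported here. The scripts were tested on simulated data. The members and lists were chosen with earlier results of these data known. The same WT mice gave all tissues, so the WT tissues are paired by animal (correlation of deviations 0.0969 to 0.524). Each KO, HET and WT animal is a separate mouse, and HTSeq totals outside genes (2.85% to 17.0% of each library's total) were left out of library sizes. The libraries with lower long transcripts also had the lowest such shares of their tissues. These were 2.85% (ventricles, HET mouse 4), 8.025% (cerebellum, KO mouse 12), and 6.86% and 8.32% (cortex, KO mice 14 and 3).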

Additional observations from a re-analysis of the deposited data

Results flagged for a closer look

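In 16 of the 72 sets of 6 libraries (6 genes in 12 groups) the highest or lowest value stood apart by Dixon's test at the 95% level, which chance gives in about 1 in 20 sets. In the cerebellum of KO mouse 12, a library with lower long transcripts, 5 genes were lowest: Ryr1 at 31.3 CPM, Ryr2 at 64.4, Itpr1 at 1382, Itpr2 at 9.63 and Itpr3 at 8.95. In the ventricles of HET mouse 4, another of them, 4 were lowest: Ryr2 at 1215 CPM, Itpr1 at 45.6, Itpr2 at 21.2 and Itpr3 at 9.94. The remaining 7 values came from other libraries. Ryr1 was lowest in the ventricles of KO mouse 12 (0.191 CPM), and Itpr3 was highest in the atria of the same mouse (35.5 CPM). Ryr2 was highest in the atria of KO mouse 5 (2793 CPM) and lowest in the cortex of WT mouse 8 (252 CPM). Ryr3 was highest in the cerebellum of WT mouse 16 (36.1 CPM). Itpr2 was highest in the atria of WT mouse 8 (42.7 CPM), and Itpr3 was lowest in the ventricles of WT mouse 17 (9.44 CPM).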

How the results depend on the processing

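For the 23 counts of called members, 310 of 321 alternative values equalled the reported count, and 829 of 843 alternative fold changes kept their direction and side of the threshold. The count for KO against WT ventricles was 1 with DESeq2 and 1 without the ventricular library of HET mouse 4 (Ryr1 in both). The count for the KO effect in ventricles against atria was 2 with no low-count filter (Ryr3, and Ryr1 with its few atrial counts). The cause was not tested. The leave-one-out counts for WT cortex against hippocampus ranged from 2 to 4, with 2 without WT mouse 8. The log2 difference of Ryr3 between KO and WT cortex turned to 0.047 without KO mice 14 and 3 (chosen after seeing the data, as were HET mouse 4 and the coding length). Coding length is shorter than exon length for every member, so scaling to it necessarily raised the levels per kb, 24 of them by more than their spread. A block by replicate number, which no animals share across genotypes (correlations -0.216 to 0.0803), left 0 members called in each of the 9 genotype comparisons, with Ryr1 in KO ventricles at -1.30 on the log2 scale. Without the block, that difference ranged from -1.39 to -1.11 when 1 WT or KO library was left out (edgeR adjusted p 0.0723 to 0.257), and without HET mouse 4 the adjusted p was 0.0482. A block by mouse left 5, 6 and 4 of the WT calls as they were, and leaving the block out left 0 for the KO effects between tissues. Lengths from proteins were not run. Ryr1 in the heart rests on 3 to 104 counts per library, so depth limits what these libraries can show for it.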
